A study of Mus musculus with 6 samples.

Results

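The promoters of the nuclear genes for oxidative phosphorylation (OXPHOS) were followed by H3K27ac chromatin immunoprecipitation sequencing (ChIP-seq) before and after loss of OCT4 in mouse embryonic stem cells (ESCs). The genes were the protein-coding GENCODE vM21 genes whose names begin with Nduf, Uqcr, Cox4 to Cox8 or Atp5, together with Sdha, Sdhb, Sdhc and Sdhd. A promoter peak was an H3K27ac peak with a transcript start of such a gene within 1 kb. The rule gave 94 gene IDs with 93 names, of which 87 had a peak, and 98 peaks out of the 31131 in the data. By comparison, 11924 peaks lay near the start of another protein-coding gene.

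Libraries came from 3 immunoprecipitations (IPs) of uninduced ESCs and 3 of ESCs given IAA (indole-3-acetic acid, an auxin) at 500 μM for 1.5 h. Both groups were of strain 129SV and Oct4-/-, with the transgenes TetOFF Oct4, CAG Oct4AID and, for the auxin receptor, CAG Tir1. In this line the endogenous gene is inactivated, doxycycline keeps the wild-type Oct4 transgene off in all samples, and the remaining OCT4 carries an auxin-inducible degron and is driven, like the TIR1 receptor, by the constitutive CAG promoter. All samples grew in N2B27 with PD03, Chiron and mLIF, a medium that holds ESCs in the naive state. Whether the IPs of a group came from separate cultures is not stated in the labels, so the p-values measure the spread between these libraries, which may be technical. Of the marker genes looked up, 8 of 8 for mouse ESCs had an H3K27ac peak at the start, against 0 of 5 for trophoblast and 1 of 4 for primitive endoderm, where the single gene was Gata6. Peaks were called by the authors on uninduced reads, so these counts describe the uninduced ESCs and cannot show peaks gained after IAA.

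Oxidative phosphorylation is carried out in the inner mitochondrial membrane. Complexes I and II pass electrons from NADH and succinate to ubiquinone, complex III passes them to cytochrome c and complex IV to oxygen, and the proton gradient so built drives ATP synthesis by complex V. Most subunits are encoded in the nucleus by housekeeping genes, whose promoters are often bound by NRF1, by ETS-family factors such as GABPA, and by YY1, while ERR nuclear receptors act as further regulators. ESCs in the naive state use both glycolysis and respiration. H3K27ac is an acetylation of histone H3 found at active promoters and enhancers.

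The promoter windows of the members, from 250 bases before to 50 bases after the RefSeq start on GRCm38.p6, were searched for the letters of 5 motifs on both strands. A window was found for 76 member genes, 81 windows in all, and they were compared with 21263 windows of coding genes. The NRF1 letters, which read the same on both strands and are spelled in capitals in the first sites below, were in 8.64% of member windows and 1.33% of all windows. The YY1 letters AAGATGGC were in 13.6% against 3.05%, and the ERR letters TCAAGGTCA in 2.47% against 0.334%. The ETS letters CCGGAAGT were in 6.17% against 5.15%, and the octamer ATTTGCAT, recognised by OCT4, was in 1 member window (Ndufs4), which is 1.23% against 1.66%. The coding windows were not matched to the members in H3K27ac or GC content. A match of letters is a description of the window and shows no binding.

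The sites below are shown because they hold the NRF1, YY1 and ERR letters that were more frequent in member windows than in all windows. Each line is a stretch of 30 bases, 5′ to 3′ on the strand of the gene, with the matched letters in capitals (RefSeq, GRCm38.p6). The NRF1 letters lay before the start in 5 of 7 genes, from position -162 to -42, counting the base before the start as -1. Of the 5 NRF1 sites shown, that of Uqcrc1 lay after the start, at position 31. The site at -162, in Cox6a1, is not shown.
Atp5g2, chr15:102671070-102671099, minus strand: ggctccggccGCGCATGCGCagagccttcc
Atp5k, chr5:108434430-108434459, minus strand: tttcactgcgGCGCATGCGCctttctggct
Ndufa11, chr17:56717692-56717721, plus strand: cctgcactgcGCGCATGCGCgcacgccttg
Ndufaf4, chr4:24897960-24897989, plus strand: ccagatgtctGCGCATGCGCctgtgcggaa
Uqcrc1, chr9:108936668-108936697, plus strand: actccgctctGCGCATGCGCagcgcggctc
The YY1 letters lay after the start and in the direction of transcription in 9 of 11 genes, between positions 11 and 39, which is 81.8% of the genes with the letters. Among all 649 coding windows with the letters, 40.5% held them there. The letters contain ATG, and whether this is the start codon of these genes was not tested.
Ndufs4, chr13:114388045-114388074, minus strand: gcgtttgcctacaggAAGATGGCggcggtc
Ndufs6, chr13:73328433-73328462, minus strand: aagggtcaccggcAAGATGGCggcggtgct
Ndufs7, chr10:80249462-80249491, plus strand: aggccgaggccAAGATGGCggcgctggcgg
Ndufa9, chr6:126849097-126849126, minus strand: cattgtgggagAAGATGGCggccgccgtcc
Ndufc1, chr3:51408915-51408944, minus strand: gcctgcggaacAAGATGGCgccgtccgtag
The ERR letters were present on the opposite strand in Atp5g3 and Sdhd.
Atp5g3, chr2:73911359-73911388, minus strand: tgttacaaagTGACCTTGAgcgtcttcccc
Sdhd, chr9:50603800-50603829, minus strand: tttccgggttgtagagTGACCTTGAgccct

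H3K27ac marked nearly every gene of the set. A promoter peak was present at 92.6% of OXPHOS gene IDs, against 47.2% of 21844 other coding genes. Related lists were marked as often, at 13 of 13 TCA cycle genes, 17 of 17 glycolysis genes, 13 of 13 genes of coenzyme Q synthesis and 77 of 78 of the mitochondrial ribosome. A list of further assembly factors, which also holds Cyc1, Cycs and Lrpprc, had a peak at 41 of 41 genes. Of the regulators of mitochondrial biogenesis, 14 of 17 had one. All 36 complex I genes, all 4 of complex II and all 8 of complex III had one, as did all 8 NDUFAF assembly factors of complex I. The 6 gene names with no peak were Cox4i2, Cox6a2, Cox7b2, Cox8b, Cox8c and Ndufa4l2, all paralogs of more widely used subunits. Their partners Cox4i1, Cox6a1, Cox7b, Cox8a and Ndufa4 all had a peak. Cox7a1, the heart and muscle form, had a peak beside that of the general form Cox7a2, and the testis form Cox6b2 had one beside Cox6b1. A gene ID that repeats the name Atp5o also had no peak, while the first Atp5o did.

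The median mark was also higher at these promoters than over other coding promoters or over all peaks tested. Levels were given in RPKM, which divides the reads of a peak by its length and by the size of the library. By the authors' mean of the condition, the median member peak stood at 4.07 RPKM in uninduced ESCs (quartiles 3.10 and 4.70), against 2.88 RPKM over 11725 other coding promoter peaks and 2.44 RPKM over all 26457 peaks tested. All 98 member peaks were above the threshold of 0.5 RPKM. Their uninduced means ran from 1.62 to 8.55 RPKM, and those of the 21 glycolysis peaks from 1.65 RPKM (Ldhb) to 9.52 RPKM (Pgk1). The higher level is thus not shown to be particular to the set. Member peaks were longer, with a median of 1107.5 bp against 816 bp, and their GC content was 55.8% against 57.7%. The start lay inside the peak for 83 of the 98, and 86 peaks overlapped an exon of the gene and 86 an annotated UTR. A further 11 peaks lay upstream of the start and 4 downstream.

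After IAA, every member peak had a lower mean of log2(RPKM + 0.1) than before, while relative to the median peak of the library 48 of the 98 changed sign and were higher. Peaks were called on uninduced reads, which favours falls over rises, among members and other peaks. This limit holds for all counts of lower and higher peaks given here. The mean of the IAA libraries was 43.3% to 83.7% of the uninduced mean, with a median of 67.8%. In limma with Benjamini-Hochberg adjustment over all 26457 peaks, 87 member peaks were lower, which is 88.8%, 0 were higher and 11 did not pass. At an unadjusted p under 0.05 in limma, 90 were lower and 0 higher, a count not made over all peaks. At the adjusted threshold, 68.2% of all peaks tested were called lower and 0.0605% higher. Without uninduced replicate 1 the count of members called lower was 45, and without any other single library it was 60 to 91. Over all 26457 peaks these counts were 10378 and 12300 to 19611. In 88 member peaks the highest IAA value was under the lowest uninduced one, which is 89.8%, against 71.2% of all peaks tested.

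The fall of the members was close to that of other peaks. The median change of the members was -0.56 on the log2(RPKM + 0.1) scale, against -0.53 for other coding promoter peaks and -0.55 for all peaks tested. The members differed less among themselves, with an interquartile range of 0.139 against 0.230 for other coding promoters and 0.293 for all peaks. The median member peak also held more reads per library than that of either set, and the part of depth in the narrower range was not tested. Over the related lists the range was 0.109 for coenzyme Q synthesis, 0.157 for glycolysis, 0.158 for the TCA cycle, 0.188 for the mitochondrial ribosome, 0.194 for the list of further assembly factors and 0.242 for regulators of mitochondrial biogenesis. Once each library was centred on its median peak, 1 member peak was lower and 0 were higher, where 1.97% and 0.544% of all peaks were called. At an unadjusted p under 0.05 in limma, the centred values gave 5 lower and 0 higher. No such count was made over all peaks tested, so these 5 are not read as a result about the members.

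The same can be read from the library medians. On the log2(RPKM + 0.1) scale the median member peak stood at 2.10, 2.01 and 1.99 in uninduced libraries 1, 2 and 3, and at 1.66, 1.47 and 1.27 in IAA libraries 1, 2 and 3. The groups did not overlap, and the spread was larger after IAA (SD 0.191) than before (SD 0.0602, n = 3 each). The difference between the member median and the median of other coding promoters was 0.48, 0.39 and 0.49 before IAA and 0.42, 0.45 and 0.39 after it, so that on this measure the groups overlapped and the change was -0.03.

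**Figure D1:**
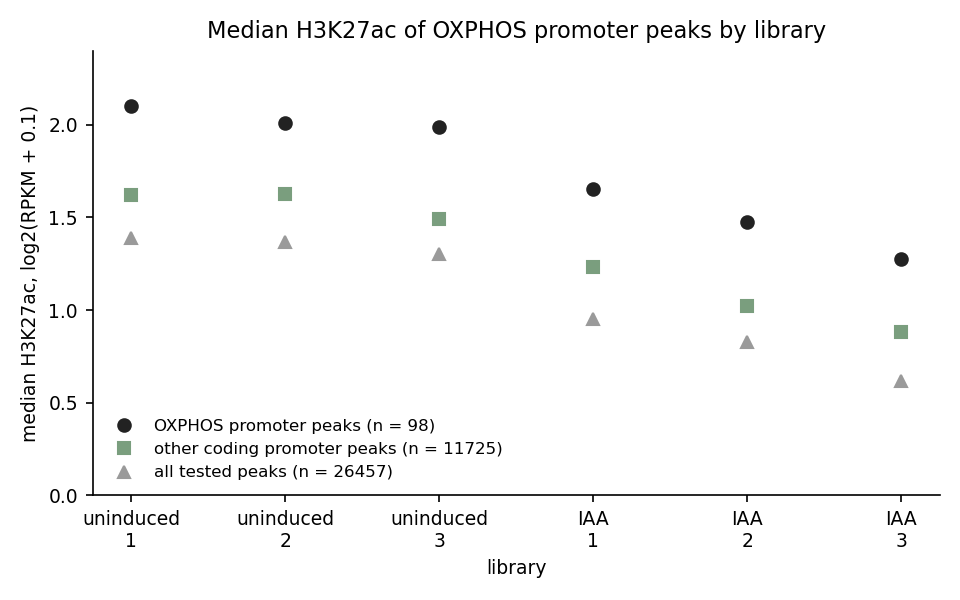
Median H3K27ac on the log2(RPKM + 0.1) scale (y axis) in each of the 6 libraries (x axis) for the OXPHOS promoter peaks (circles), other coding promoter peaks (squares) and all tested peaks (triangles). The members stood above both other sets in every library, and in all 3 sets the IAA libraries were lower than the uninduced ones before centring.

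Facts of the libraries bear on these values. Library sizes recovered from the RPKM steps were 31634480 to 39547452 reads, and the share of reads in peaks was 6.63% to 7.12% before IAA and 4.05% to 5.15% after. The authors scaled by all reads of a library, so this share moves all peaks together, and a lower level at these promoters cannot be told apart from a library with fewer of its reads in peaks. Nor can fewer cells with the mark be told apart from less of the mark per cell. IAA library 3 was the lowest of the 6 in 75 of the 98 member peaks. The median member peak held 85 to 175 reads per library, against 50 to 98 for other coding promoter peaks.

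The number of calls moved with this depth, whose part in the higher share of members called was not tested. Among peaks with a mean of at least 100 reads per library, 63 of 65 member peaks were called lower (96.9%), against 87.0% of 4114 other coding promoter peaks. Among those with fewer reads, 24 of 33 were called (72.7%), against 62.4% of 7611. The median change was -0.56 and -0.54 for the deeper and shallower members, and -0.53 in both classes of other promoters.

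Complex I, the NADH dehydrogenase, gave 37 peaks at 36 genes, of which 32 were called lower and 5 were not. The median change was -0.54, and 19 of the 37 fell less than the median peak of the data, so that they turn upward once libraries are centred. Ndufs1, which encodes the largest subunit and carries iron-sulfur clusters, had the strongest mark of the complex, at 6.74, 6.76 and 6.06 RPKM in uninduced ESCs and 4.93, 4.44 and 4.09 RPKM after IAA. Its groups did not overlap, and the change was -0.53 ± 0.15 (SE; limma adjusted p = 0.00705). Ndufv1, which binds NADH and flavin, changed by -0.50, Ndufs3 by -0.47, and the accessory subunits Ndufa9 and Ndufb10 by -0.57 and -0.61, all past the threshold. Without uninduced replicate 1, Ndufs3, Ndufv1 and Ndufa9 no longer passed (limma adjusted p = 0.0904, 0.0787 and 0.0577), and Ndufs3 and Ndufv1 also failed without uninduced replicate 2 (0.0653 and 0.0508) and Ndufs3 without IAA replicate 2 or 3 (0.0583 and 0.0566). The 5 peaks that did not pass were those of Ndufa1, Ndufa3, Ndufa5, Ndufa8 and Ndufab1, with changes from -0.41 to -0.28, though Ndufa3 and Ndufa8 passed without IAA replicate 1 (limma adjusted p = 0.014 and 0.0222) and with the replicate block (0.0397 and 0.0485). Ndufab1, which encodes the mitochondrial acyl carrier protein, stood at 2.35, 1.97 and 2.03 RPKM before and 1.97, 1.49 and 1.74 RPKM after, where the lowest uninduced and the highest IAA value were equal to the digits shown.

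All 4 peaks of complex II, succinate dehydrogenase, were called lower, with a median change of -0.54. On centring, Sdhb and Sdhc kept a negative value, Sdha and Sdhd turned upward, and none of the 4 was called. Sdhb, the iron-sulfur subunit, stood at 4.85, 5.31 and 4.02 RPKM before IAA and 3.43, 2.59 and 1.87 RPKM after, a change of -0.85 ± 0.19 (limma adjusted p = 0.00224). The catalytic subunit Sdha changed by -0.47 and the membrane anchors Sdhc and Sdhd by -0.61 and -0.45. In all 4 genes the lowest uninduced library was above the highest IAA library. Sdha and Sdhd no longer passed without uninduced replicate 1 (limma adjusted p = 0.119 and 0.0798) or 2 (0.0759 and 0.0631), nor Sdha without IAA replicate 3 (0.0795).

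Complex III, the cytochrome bc1 complex, had 10 peaks at 8 genes, 9 of them called lower, and its median change of -0.66 was below that of complexes I, II, IV and V. After centring its median was -0.11, and 4 of its 10 peaks turned upward. The difference between complexes was not tested, since peaks are not replicates. Uqcr11, a small subunit, stood at 3.51, 3.33 and 2.98 RPKM before and 1.71, 1.81 and 1.38 RPKM after, a change of -0.97 ± 0.18 (limma adjusted p = 0.00052). The core proteins Uqcrc1 and Uqcrc2 changed by -0.75 and -0.63, and the Rieske iron-sulfur protein Uqcrfs1 by -0.50, a call that was lost without uninduced replicate 1 or 2 (limma adjusted p = 0.0554 and 0.113). Uqcrq, another small subunit, had a strong peak over its start, at 6.92 ± 0.35 RPKM before and 5.25 ± 0.748 RPKM after (SD, n = 3), a change of -0.40 that was called lower and turned upward on centring.

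In complex IV, cytochrome c oxidase, 12 of 16 peaks at 13 genes were called lower, with a median change of -0.51, and 9 of the 16 turned upward after centring. The peaks that did not pass were those of Cox5a, Cox5b, Cox6a1 and Cox7a1. Cox5a stood at 5.28, 4.50 and 4.54 RPKM before and 3.89, 3.58 and 3.96 RPKM after. Cox5b stood at 3.83, 3.53 and 3.92 RPKM before and 3.42, 3.22 and 1.95 RPKM after. In both genes the groups did not overlap, but the limma adjusted p was 0.0685 for Cox5a and 0.0545 for Cox5b. Cox5a passed without IAA replicate 3 (limma adjusted p = 0.0367), as did Cox6a1 (0.0202), and Cox5b passed without IAA replicate 1 or 2 (0.0154 and 0.0434) and with the replicate block (0.0295). The paralogs differed in their values. Cox6b1, the general form, stood at 3.34, 2.92 and 3.07 RPKM before and 1.76, 1.45 and 1.51 RPKM after, a change of -0.94 ± 0.17, while the testis form Cox6b2 changed by -0.44 ± 0.15. The call at Cox6b2 was lost without uninduced replicate 1 or 2 or IAA replicate 2 (limma adjusted p = 0.0991, 0.0569 and 0.0531). Cox7a2 changed by -0.49 ± 0.18 and was called lower, but not without uninduced replicate 2 or 3 or IAA replicate 3 (limma adjusted p = 0.0749, 0.098 and 0.0529). Cox7a1 stood at 4.36, 3.76 and 5.15 RPKM before and 4.45, 3.55 and 2.92 RPKM after, and its groups overlapped (-0.28 ± 0.18; limma adjusted p = 0.143, and 0.0283 without IAA replicate 1). Ndufa4, named for complex I but known as a subunit of cytochrome oxidase, changed by -0.59.

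Complex V, the ATP synthase, had 21 peaks at 16 genes, and 20 of them were called lower. The median change was -0.57, and 9 of the 21 turned upward after centring. Atp5b, the catalytic beta subunit, stood at 7.56, 7.64 and 6.77 RPKM before and 5.90, 4.92 and 3.86 RPKM after, a change of -0.59 ± 0.16 (limma adjusted p = 0.00657). The alpha subunit Atp5a1 changed by -0.66, the gamma subunit Atp5c1 by -0.61 and the delta subunit Atp5d by -0.54, the last of which did not pass without uninduced replicate 1 or 3 (limma adjusted p = 0.0505 and 0.0578). The 3 genes for the c subunit of the membrane ring, which encode the same mature protein, could be compared over their longest peaks. Atp5g2 had the highest uninduced level of all members, 8.53, 9.09 and 8.04 RPKM, and 6.90, 5.54 and 4.92 RPKM after IAA, a change of -0.57. Atp5g1 changed by -0.79 and Atp5g3 by -0.62. All 3 were called lower before centring and none after it, where the values were -0.24 for Atp5g1, -0.014 for Atp5g2 and -0.071 for Atp5g3.

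All 8 NDUFAF assembly factors of complex I were called lower, with a median change of -0.54, and 5 of the 8 turned upward on centring. Their marks were the weakest of the roles, with a median of 2.61 RPKM in uninduced ESCs. The other members were Cox7a2l, which helps to join complexes III and IV into supercomplexes, and Atp5s, a coupling factor B homologue. Cox7a2l stood at 2.28, 2.74 and 2.24 RPKM before and 1.63, 1.05 and 1.13 RPKM after, a change of -0.89 ± 0.21 (limma adjusted p = 0.00249). Atp5s changed by -0.71.

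**Figure D2:**
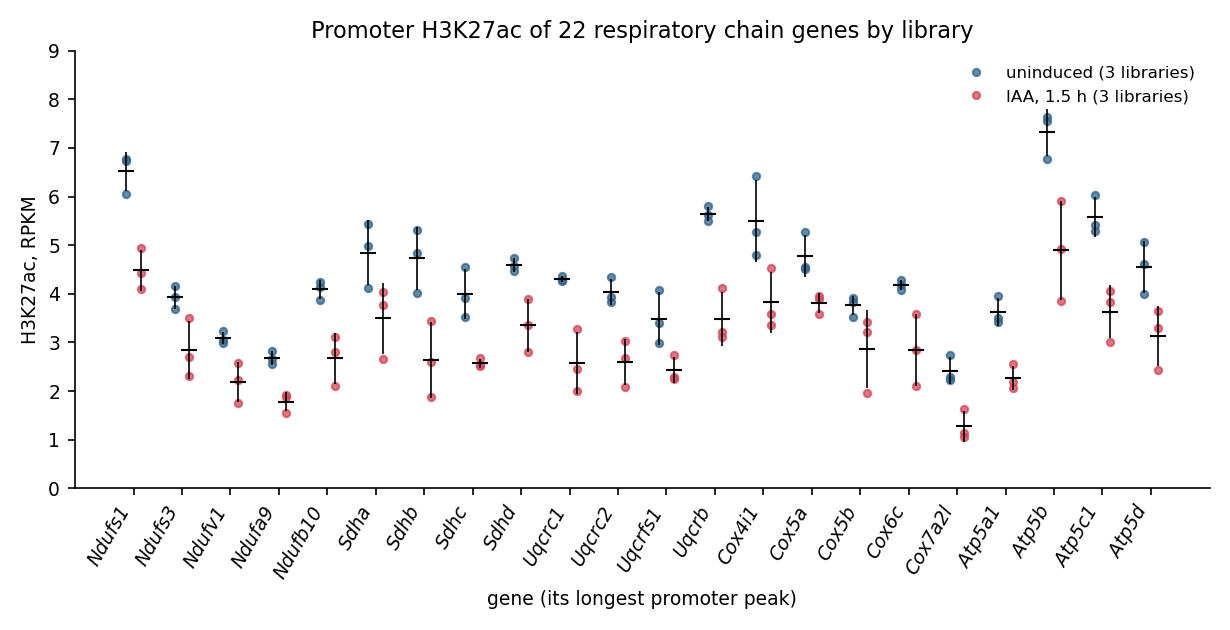
H3K27ac in RPKM (y axis) at the longest promoter peak of 22 respiratory chain genes (x axis), with a point per library, a bar at the mean of 3 libraries and lines of 1 SD, uninduced in blue and IAA in red. The IAA mean was below the uninduced mean in all 22 on the RPKM scale, from Cox7a2l at 2.42 and 1.27 RPKM to Atp5b at 7.32 and 4.89 RPKM, while Cox5a and Cox5b were not called, and 10 of the 22 turn upward after centring on the median peak.

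**Figure D3:**
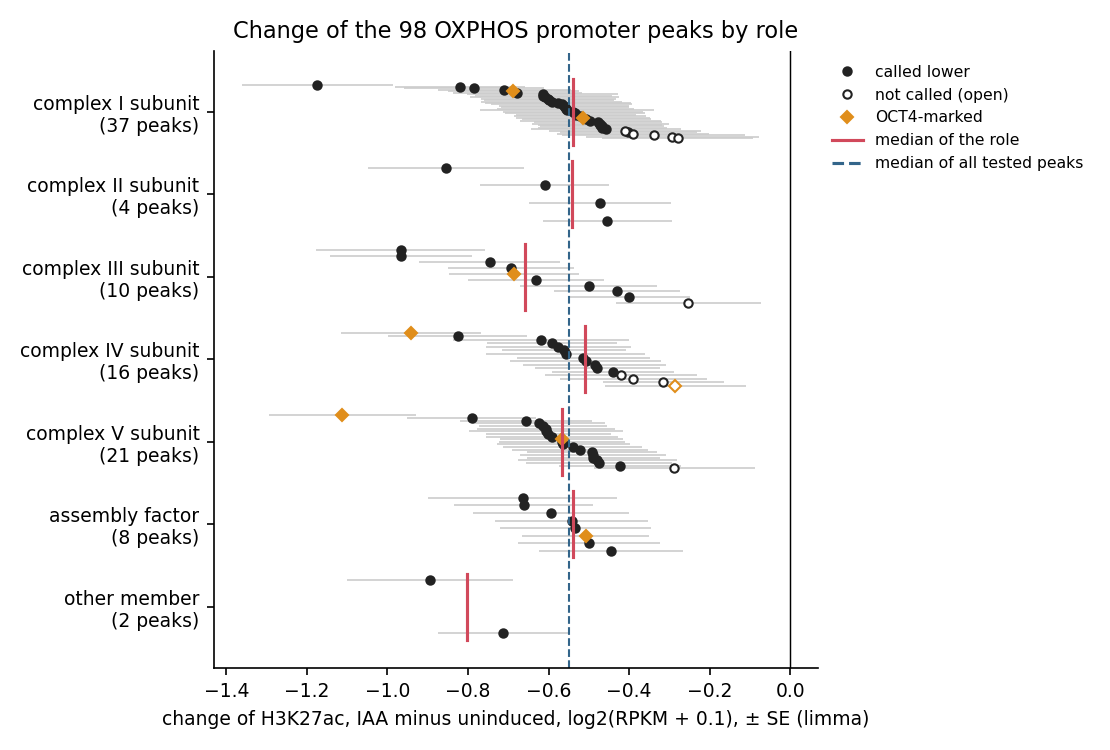
Change of H3K27ac on the log2(RPKM + 0.1) scale with its SE (x axis) for each of the 98 OXPHOS promoter peaks, sorted by role (y axis). Open symbols are the 11 peaks not called, diamonds are OCT4-marked peaks, red bars are the medians of the roles, and the dashed line is the median of all tested peaks at -0.55, to the right of which 48 peaks lie.

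The deposited table marks peaks within 1 kb of an OCT4 site from published ChIP-seq. It marked 8 member peaks, which is 8.16%, against 8.03% of other coding promoter peaks. They belonged to Atp5g2 (2 peaks), Cox6b1, Ndufs6, Uqcr10, Ndufb2, Ndufaf3 and Cox7a1, and 7 of the 8 were called lower, which is 87.5%, against 88.9% of the members without the mark. In other coding promoters the shares were 85.7% with the mark and 69.8% without. Without uninduced replicate 1 the calls at Ndufaf3 and Ndufb2 were lost (limma adjusted p = 0.0822 and 0.0716). The median change was -0.63 with the OCT4 mark and -0.55 without, and in other coding promoters -0.64 and -0.52. With 8 peaks, from -1.11 in Atp5g2 to -0.28 in Cox7a1, the marked members spanned nearly the whole range of the set.

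The 5 largest falls were at the upstream peak of Ndufv2, the 317 bp peak of Atp5g2, the 503 bp peak of Uqcrb, Uqcr11 and Cox6b1, from -1.17 to -0.94. All 5 kept a negative value on centring, but only the peak of Ndufv2 passed the threshold there (-0.62, limma adjusted p = 0.0387, and 0.049 with quantile normalization). The 5 smallest falls were at the upstream peak of Uqcrq, at Ndufab1, Cox7a1, Ndufa1 and the upstream peak of Atp5h, from -0.25 to -0.29. None of these 5 passed the test, and all turned upward on centring. Centring removes the same shift of -0.55 from every peak. The centred signs of these largest and smallest falls were thus fixed by how the peaks were picked.

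In 9 genes more than 1 peak lay near a start, 7 genes with 2 peaks and 2 genes, Cox4i1 and Atp5g2, with 3. Ndufv2 encodes a subunit of the NADH-binding module of complex I. Its upstream peak, at chr17:66101710-66102235 and outside the annotated gene, held 3.61, 3.25 and 3.20 RPKM before IAA and 1.56, 1.69 and 1.10 RPKM after (-1.17 ± 0.19; limma adjusted p = 0.000191). The peak just downstream of its start, at chr17:66100718-66101478, held 4.13, 4.45 and 4.45 RPKM before and 3.59, 3.21 and 2.62 RPKM after (-0.47 ± 0.16). The difference between both peaks within a library, which scaling of the library leaves nearly unchanged, ranged from -0.46 to -0.19 on the log2 scale before IAA and from -1.18 to -0.89 after, so that the groups did not overlap. The upstream peak rests on 54 to 75 reads per uninduced library and 20 to 32 per IAA library.

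At Atp5g1 the upstream 797 bp peak changed by -0.57 and the 1247 bp peak over the start by -0.79, and the difference within a library also separated the groups. At Atp5g2 the 317 bp peak at chr15:102671653-102671970, which is OCT4-marked and overlaps the microRNA gene Mir688, held 4.87, 5.58 and 3.67 RPKM before and 2.13, 1.75 and 2.46 RPKM after (-1.11 ± 0.18; limma adjusted p = 0.000235). The Atp5g2 peaks on either side changed by -0.57 and -0.52, and the differences within a library overlapped between groups. In Uqcrb the 503 bp intronic peak changed by -0.97 and the peak over the start by -0.69, and in Cox4i1 the 3 peaks changed by -0.51, -0.83 and -0.62, again with overlap of the within-library differences. The longest peak of Cox4i1 did not pass without uninduced replicate 2 (limma adjusted p = 0.0957). These 9 genes were compared in 11 pairs of peaks, of which 2 separated the groups in either direction. With 3 libraries per group an exact two-sided permutation p cannot be under 0.1, and other promoters were not counted. The 2 pairs are therefore not read as a result, and the upstream peak of Ndufv2 was itself picked as the largest fall.

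**Figure D4:**
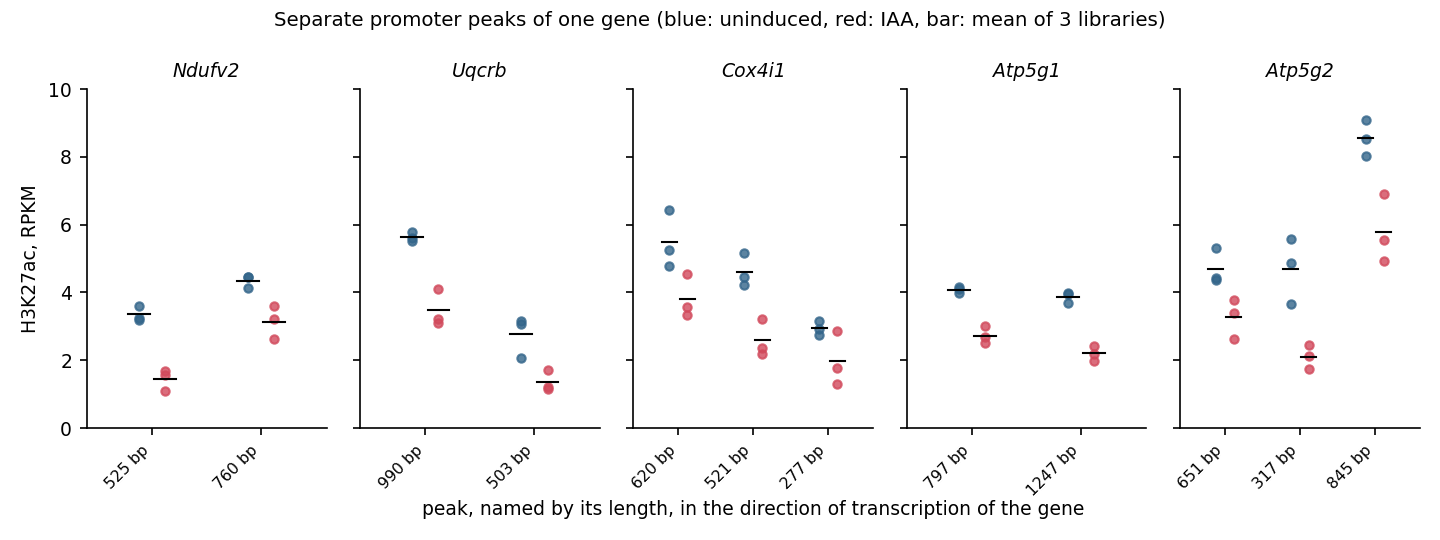
H3K27ac in RPKM (y axis) in each library at the separate promoter peaks of 5 genes, with peaks named by length and set in the direction of transcription (x axis), uninduced in blue, IAA in red and a bar at the mean of 3 libraries. At Ndufv2 the upstream 525 bp peak fell to 1.45 RPKM from 3.35 RPKM and stayed lower on centring, while the 760 bp peak went to 3.14 RPKM from 4.34 RPKM and turned upward on centring.

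For 39 of the 98 peaks, at 34 genes, the start of another coding gene also lay within 1 kb, so that the mark cannot be assigned to one of them. Partners included Gabpa, the DNA-binding subunit of an ETS-family regulator of respiratory genes, opposite Atp5j, the mitochondrial ribosome genes Mrpl36 and Mrpl47 opposite Ndufs6 and Ndufb5, Timm8b opposite Sdhd, and Eef1b2 opposite Ndufs1. Of these shared peaks 34 were called lower, with a median change of -0.54, and of the 59 unshared ones 53, with a median change of -0.56.

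Across the 98 peaks the change had a Spearman rho of 0.14 with the mean level, 0.02 with peak length and 0.09 with GC content (Pearson r 0.15, 0.05 and 0.15). The peaks share the same 6 libraries, so these are descriptions. Genes with the NRF1 letters had a median change of -0.56 over 7 genes and those without -0.51 over 67, each by the longest peak. For the YY1 letters the medians were -0.54 over 11 genes and -0.51 over 63. The ETS letters went the other way, with -0.48 over 5 genes and -0.53 over 69, and for the ERR letters the medians were -0.54 over 2 genes and -0.53 over 72. The single gene with the octamer, Ndufs4, changed by -0.54, against -0.52 over 73 without it.

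**Figure D5:**
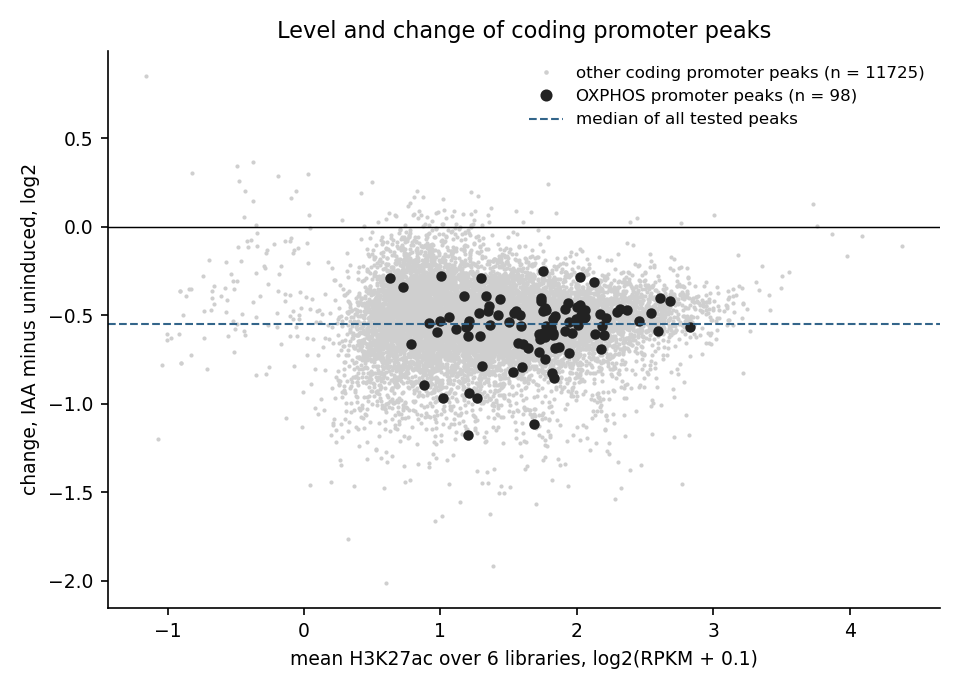
Change after IAA on the log2(RPKM + 0.1) scale (y axis) against the mean level over the 6 libraries on the same scale (x axis) for the 98 OXPHOS promoter peaks (black) and 11725 other coding promoter peaks (grey), with the median of all tested peaks at -0.55 as a dashed line. The black points lie within the grey cloud on both sides of that line.

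Other genes of mitochondrial metabolism, and those of glycolysis in the cytosol, gave like values, with 0 peaks called higher in each list by limma, also at an unadjusted p under 0.05. Of 17 peaks of the TCA cycle enzymes, 12 were lower (median change -0.54), and of 21 peaks of glycolysis enzymes, 17 (-0.52). The list of assembly factors outside the naming rule had 36 of 44 lower (-0.54), coenzyme Q synthesis 12 of 14 (-0.51) and the mitochondrial ribosome 69 of 83 (-0.53). The first of these lists also holds Cyc1, Cycs and Lrpprc, which are not assembly factors. The regulators of mitochondrial biogenesis had 19 of 23 lower, with a median of -0.60, 2 of the 23 being the peaks shared by Gabpa and Atp5j. On centring, the medians of these 6 lists lay between -0.04 and 0.04, and 1 glycolysis peak, that of Pgk1, which encodes phosphoglycerate kinase, was called higher (0.39, limma adjusted p = 0.0276). The largest change among the regulators was at 1 of the 3 peaks of Esrrb, an ERR receptor and pluripotency factor of ESCs, an OCT4-marked peak with 6.74 ± 0.697 RPKM before and 3.15 ± 0.703 RPKM after (SD, n = 3; -1.09 ± 0.17), which was also called lower on centring (-0.54, limma adjusted p = 0.0269). The other Esrrb peaks, the longest of which is OCT4-marked too, changed by -0.66 and -0.67 and were not called on centring (-0.10 and -0.12). The peaks of Nrf1 changed by -0.42 and -0.66 and that of Tfam, the mitochondrial transcription factor, by -0.60, whereas both peaks of Yy1 did not pass (-0.32 and -0.21).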

How the data were processed

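H3K27ac ChIP-seq libraries of 3 uninduced and 3 IAA-treated IPs were used. The authors aligned reads with Bowtie2 2.3.4.3 to mm10 (GRCm38), deduplicated them with SAMtools, pooled the uninduced reads for peak calling by MACS2 and deposited RPKM values per library and per condition, made with DiffBind (versions of MACS2 and DiffBind are not given in the sources used here). The deposited RPKM steps gave whole reads for 100% of values (tolerance 0.01 reads), from which library sizes and reads per peak were recovered. No count test was run, because values stop at 1 read and the unit is RPKM.

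Peaks with a pooled RPKM of at least 0.5 in either condition were tested on log2(RPKM + 0.1), which understates changes of low peaks, with limma 3.58.1 in R 4.3.3 (trend and robust), Benjamini-Hochberg adjusted over 26457 peaks, at a threshold of 0.05. Tested on simulated data, where 200 of 26457 peaks were given a log2 change of 1, the fit recovered 29.5% and made 1 false call. The simulation held no shift common to all peaks, whereas 68.2% of the peaks tested in the data were called lower. Its rates are therefore not those of the calls reported here. Coordinates are as in the files. Transcript starts came from GENCODE vM21, promoter windows from RefSeq. The members, gene lists and tests were chosen with earlier results of these data known. Named genes were listed core subunits, tissue paralog pairs, the 5 largest and 5 smallest falls, OCT4-marked peaks and peaks not called, and 1 listed gene is not reported here. A named gene's peak is its longest unless another is specified. No input or spike-in was used here.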

Additional observations from a re-analysis of the deposited data

How the results depend on the processing

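The direction of the fall depended on the scaling between libraries. RPKM as deposited gave a median change of -0.55 over all peaks tested. Centred on the median peak, members called lower numbered 1, those with all IAA values below the uninduced values 11, and their median change was -0.0024. Centred on the median coding promoter peak these were 1, 9 and -0.023, and with quantile normalization 1, 9 and 0.021. Over all 26457 peaks, 520, 596 and 447 were called lower under these scalings, in the same order. Peaks with separate groups were not counted over all peaks here, so 11, 9 and 9 are not read as results about the members. The medians of complexes I to V, assembly factors and other members became 0.014, 0.013, -0.11, 0.043, -0.013, 0.015 and -0.25 on the median peak, -0.0064, -0.0080, -0.13, 0.022, -0.034, -0.0055 and -0.27 on the median coding promoter peak, and 0.024, 0.042, -0.072, 0.049, 0.018, 0.018 and -0.23 with quantile normalization. With a pseudocount of 1, the median of assembly factors moved to -0.40 and that of other members to -0.58, by construction of the scale. Which scaling is right was not tested, as no spike-in was used here.

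Leaving out 1 library gave 45 to 91 members called lower and 0 called higher. Over all 26457 peaks the count called lower moved too, from 10378 to 19611. Members with separate groups numbered 89 to 95, a count that cannot fall when a library is left out. Median changes then ranged from -0.64 to -0.45 over all members, and by role from -0.62 to -0.44 (complex I), -0.64 to -0.46 (II), -0.74 to -0.52 (III), -0.60 to -0.45 (IV), -0.66 to -0.43 (V), -0.60 to -0.49 (assembly) and -0.95 to -0.72 (other). The within-library difference from other coding promoters changed by -0.07 to -0.01. At named peaks, Cox6c lost its call without IAA replicate 2 and Cox8a without uninduced replicate 1 or IAA replicate 2 (limma adjusted p = 0.0787, 0.0696 and 0.0552), beside the genes named in the report. Sdha was lost in limma without trend and robust (0.0503), and Cox5b passed with pseudocounts of 0.5 and 1 (0.0492 and 0.0459).

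Same-numbered libraries did not deviate together (correlations -0.01, -0.09 and -0.06). With the replicate block 90 members were called lower, and Cox5b, Ndufa3 and Ndufa8 passed. Of all peaks, 18898 were lower with the block, against 18048 without it. Without a threshold on RPKM 78 members were called, with at least 1 RPKM 87, and with limma without trend and robust 82. Over all peaks, 15518 of 31131, 18080 of 25403 and 17457 of 26457 were called lower in these settings. With starts inside the peak 76 of 83 were called. With subunits only 77 were called, where the 8 peaks of assembly factors and 2 of other members, all called lower, were left out. Restricting the count to peaks with at least 100 reads was chosen after seeing the data and left 63 lower of 65.

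After centring each library on its median peak, 24 of the 48 named peaks changed sign: Atp5d 0.013, Atp5h upstream 0.27, Cox4i1 0.040, Cox5a 0.24, Cox5b 0.13, Cox6a1 0.16, Cox6b2 0.11, Cox7a1 0.27, Cox7a2 0.068, Cox8a 0.074, Ndufa1 0.26, Ndufa3 0.14, Ndufa5 0.21, Ndufa8 0.16, Ndufab1 0.27, Ndufaf3 0.046, Ndufb2 0.039, Ndufs1 0.022, Ndufs3 0.082, Ndufv1 0.057, Sdha 0.081, Sdhd 0.099, Uqcrfs1 0.053 and Uqcrq upstream 0.30.

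After centring on the median coding promoter peak, 23 changed sign: Atp5h upstream 0.24, Cox4i1 0.020, Cox5a 0.22, Cox5b 0.11, Cox6a1 0.14, Cox6b2 0.092, Cox7a1 0.25, Cox7a2 0.047, Cox8a 0.053, Ndufa1 0.24, Ndufa3 0.12, Ndufa5 0.19, Ndufa8 0.14, Ndufab1 0.25, Ndufaf3 0.025, Ndufb2 0.018, Ndufs1 0.0011, Ndufs3 0.061, Ndufv1 0.036, Sdha 0.060, Sdhd 0.078, Uqcrfs1 0.032 and Uqcrq upstream 0.28.

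After quantile normalization, 25 changed sign: Atp5d 0.043, Atp5h upstream 0.28, Cox4i1 0.053, Cox5a 0.26, Cox5b 0.16, Cox6a1 0.17, Cox6b2 0.14, Cox6c 0.0036, Cox7a1 0.29, Cox7a2 0.079, Cox8a 0.085, Ndufa1 0.29, Ndufa3 0.17, Ndufa5 0.23, Ndufa8 0.18, Ndufab1 0.27, Ndufaf3 0.071, Ndufb2 0.065, Ndufs1 0.016, Ndufs3 0.12, Ndufv1 0.080, Sdha 0.10, Sdhd 0.13, Uqcrfs1 0.078 and Uqcrq upstream 0.33. The upstream peak of Ndufv2 stayed called lower under all 3 scalings, at -0.62, -0.64 and -0.60.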
